A study of Homo sapiens with 12 samples.

Results

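The response of LNCaP cells to raised USP22 was described across the transcriptome by comparing 3 libraries of cells overexpressing USP22 with 3 libraries of cells carrying the pLPLUC vector control. These 6 libraries were chosen by their labels, out of 12 in the series, and every gene that passed a filter on low counts entered the comparison, 26076 of the 63677 genes in the table. LNCaP was derived from a human prostate cancer metastasis and responds to androgens, and all 4 groups grew in hormone-proficient medium. The other 6 libraries, 3 per group, carried an shRNA, either a control or 1 that targets USP22. These shRNA cells had 5 days of doxycycline, renewed every 48 hours at 1 ug/mL, a treatment not listed for the vector control and overexpressing cells. The sources used here do not say whether the overexpressing cells were 1 clone or a pool of cells, or whether the replicates were separate cultures. The p-values therefore measure the spread between these libraries, which may be technical.

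USP22 cleaves ubiquitin as the catalytic subunit of one module of SAGA, a coactivator complex that is recruited to gene promoters. Within that module it works with ATXN7, ATXN7L3 and ENY2 and removes ubiquitin from histone H2B and, in some settings, from H2A, while the acetyltransferase module of the complex acetylates histone H3. Ubiquitin on H2B is added and removed during each round of transcription, and USP22 also acts on proteins other than histones.

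The 6 libraries held 78539193 to 85796458 counted reads, so that 1 CPM (reads relative to the library size, scaled for composition) stood for 70.9 to 84.2 reads. The overexpression libraries lay close to each other, with a standard deviation of their log2 values about their group mates of 0.402 to 0.406. Vector control replicates 1 and 2 had values of 0.457 and 0.46, and vector control replicate 3 stood apart at 0.587. In replicate 3, the correlation across genes between the deviation from the group mean and GC content was 0.489, a description over genes that share 1 library. The values of -0.319 and -0.306 in replicates 1 and 2 are no separate contrast, since deviations within a group sum to 0. In the overexpression libraries the values were -0.0142, -0.12 and 0.134. The mitochondrial share of reads in vector control replicate 3 was 0.691% against 1.04% and 1.24%. Calls, named genes and gene lists were therefore also computed without that library, while the differences between overexpression and depletion were not. In bulk RNA, fewer cells of a type and less RNA per cell cannot be told apart.

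USP22 itself was present at 482, 491 and 565 CPM in the vector control libraries and at 1498, 1406 and 1495 CPM in the overexpression libraries. The groups did not overlap, and the difference of 1.52 ± 0.06 (log2 fold change ± SE) was a 2.86-fold rise (edgeR quasi-likelihood test, adjusted p = 4.29e-10). Without vector control replicate 3 it was 1.59.

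On overexpression 1072 of 26076 tested genes were called (4.11%), 393 higher (1.51%) and 679 lower (2.6%), at an adjusted p under 0.05. Most calls were small: 644 were under 1.5-fold and 206 were at least 2-fold, 70 higher and 136 lower. Called rises had a median size of 0.524 on the log2 scale and called falls 0.464. In 1068 of the 1072 called genes the 3 overexpression libraries did not overlap the 3 vector control libraries, a pattern seen in 22.4% of all tested genes. The share was 37.4% with vector control replicate 3 left out, but with fewer libraries groups fail to overlap by chance more often. Without vector control replicate 3 there were 1842 calls among 26896 tested genes (6.85%), 754 higher (2.8%) and 1088 lower (4.05%). Of these, 1012 were also called with all libraries, all in the same direction, and 60 of the 1072 were lost. When the spread was estimated from the 6 compared libraries alone, 327 of 23861 genes were called (1.37%), 326 of them among the 1072. Leaving out overexpression replicate 1, 2 or 3 gave 539, 501 or 630 calls. The plot of fold change against level shows how the calls spread over genes of very different abundance.

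**Figure D1:**
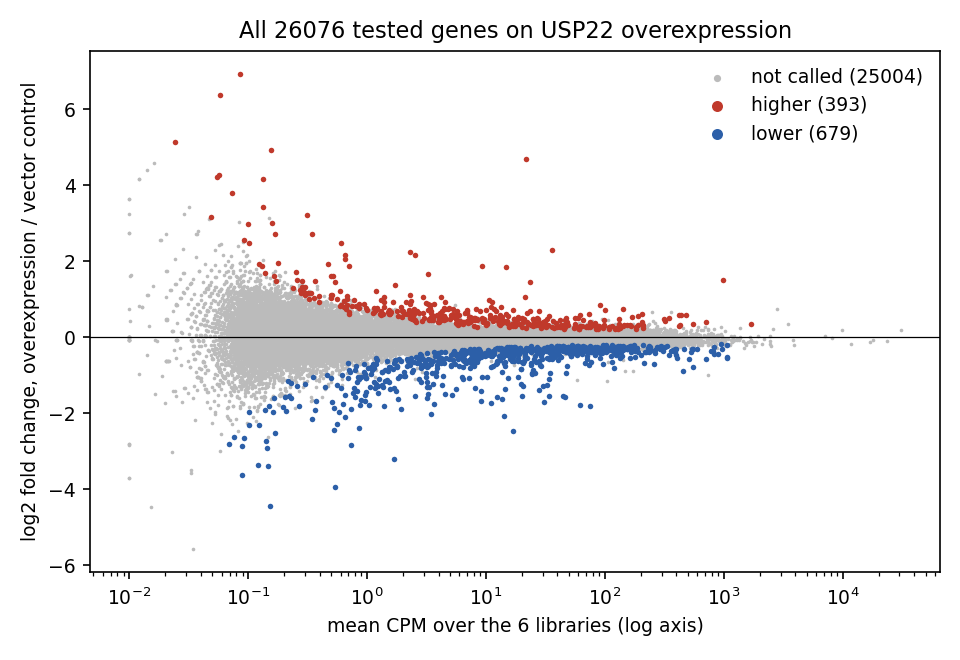
Log2 fold change of each of the 26076 tested genes (vertical axis, overexpression over vector control) against its mean CPM over the 6 libraries (horizontal axis, log scale, genes under 0.01 drawn at 0.01). Red points are the 393 genes called higher and blue points the 679 called lower, and among well-measured genes few calls exceed a log2 change of 2 in either direction.

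Several of the rises with a wide gap between the groups were genes of neurotransmitter signalling and vesicle release. NPY1R, a receptor for neuropeptide Y, was at 0.914, 0.756 and 0.761 CPM in vector control cells and at 3.6, 3.89 and 4 CPM in overexpressing cells. This was a 4.72-fold rise (log2 2.24 ± 0.16, adjusted p = 2.95e-07) resting on 54 to 72 reads in each vector control library and 303 to 320 in each overexpression library. KCNJ3, a subunit of G protein-gated inward rectifier potassium channels that such receptors open, went from 13.4, 12.8 and 10.6 to 58.1, 65.1 and 57.1 CPM. KCNQ5, a voltage-gated potassium channel, was at 1.23, 1.57 and 1.55 CPM against 2.76, 2.97 and 3.62 CPM, a 2.15-fold rise (adjusted p = 0.00209). For each of these genes all overexpression libraries lay above all vector control libraries, which the rule for naming genes required. GRIK2, a kainate-type glutamate receptor subunit, rose 2.09-fold from 1.78, 1.96 and 1.96 to 3.4, 4.37 and 4.17 CPM (adjusted p = 2.75e-05). OPRK1, the kappa opioid receptor, rose 1.66-fold, with 6.52, 6.15 and 6.09 CPM against 9.82, 11 and 10.4 CPM (adjusted p = 2.49e-05). Receptors also fell: CHRM3, a muscarinic acetylcholine receptor, was at 3.9, 3.58 and 3.44 CPM against 2.06, 2.2 and 1.99 CPM (log2 -0.81 ± 0.13, adjusted p = 0.00128), and P2RX5, an ATP-gated channel, fell by 1.18 on the log2 scale (adjusted p = 0.0048). Falls outnumber rises over all tested genes, and lists are to be read against that. In the list of 42 tested ligand-gated channels and neurotransmitter receptors, 1 member rose and 3 fell, with a median log2 change of -0.035 against -0.008 over all tested genes. Of that list 9.52% were called, beside 6.01% of protein-coding genes.

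The list of neuronal RNA-binding, microtubule and vesicle genes had 54 tested members, of which 8 rose and 4 fell (22.22%), with a median log2 change of 0.079. UNC13C, which primes synaptic vesicles, rose from 3.87, 4.33 and 3.81 to 14.5, 14.2 and 15.1 CPM (log2 1.86 ± 0.15, adjusted p = 7.42e-07), and RALYL, an RNA-binding protein, from 6.97, 7.18 and 5.36 to 23.5, 23.4 and 22.9 CPM (log2 1.84 ± 0.09, adjusted p = 4.54e-09). Scaffold genes of the presynaptic active zone rose by smaller amounts. RIMS1 went from 51.4, 52.1 and 43.8 to 74.4, 75.6 and 71.4 CPM (log2 0.59 ± 0.07, adjusted p = 7.64e-05) and PCLO from 12.3, 13 and 9.97 to 18, 17.6 and 18.5 CPM (log2 0.62 ± 0.09, adjusted p = 0.000962). RIMS4 rose by 0.70 and SNAP91, which takes part in vesicle recycling, by 0.72 on the log2 scale. The 4 falls in the list were MAP2, STXBP5L, MAP1B and SYT4. MAP2, a microtubule-associated protein of dendrites, fell from 34.1, 33.7 and 28.6 to 15.4, 17.1 and 16.8 CPM (log2 -0.97 ± 0.08, adjusted p = 1.29e-06). STXBP5L, which binds syntaxin and holds back vesicle release, fell from 174, 173 and 139 to 119, 117 and 112 CPM (log2 -0.48 ± 0.08, adjusted p = 0.00125). All 12 genes were also called without vector control replicate 3, when the list's counts were 11 rises and 4 falls and its median was 0.187. Among 54 tested sodium, calcium, chloride and TRP channels, 2 rose and 4 fell with all libraries, and 7 rose and 5 fell without vector control replicate 3. With all libraries 11.11% of these channels were called, beside 6.01% of protein-coding genes. CACNA1D, an L-type calcium channel subunit, rose 1.4-fold (8.03, 7.08 and 8.15 CPM against 11.1, 10.7 and 10.7 CPM).

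**Figure D2:**
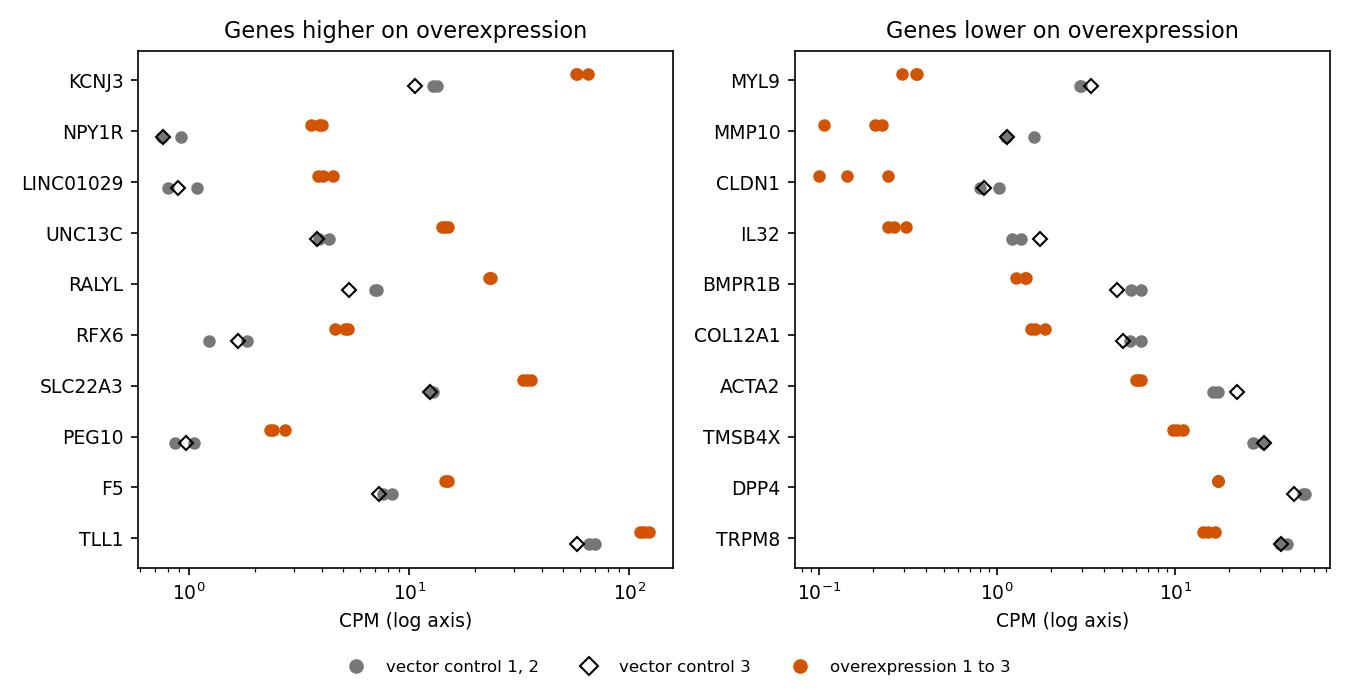
CPM in each of the 6 libraries (log axis) for 10 genes that were higher and 10 that were lower on overexpression, with grey circles for vector control replicates 1 and 2, open diamonds for vector control replicate 3 and orange circles for the 3 overexpression libraries. The rule that named these genes required that the 2 groups do not overlap, vector control replicate 3 included, so their separation was fixed in advance.

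Other rises lay outside neuronal genes. RFX6, a transcription factor of endocrine pancreas development, was at 1.23, 1.83 and 1.68 CPM in vector control and at 4.59, 5.29 and 5.09 CPM in overexpressing cells, a 3.16-fold rise (adjusted p = 5.75e-06). PEG10, an imprinted gene derived from a retrotransposon, rose 2.58-fold from 0.864, 1.05 and 0.973 to 2.33, 2.41 and 2.72 CPM (adjusted p = 1e-05). TLL1, a metalloprotease that processes procollagen, was far more abundant, with 70, 65.6 and 57.9 CPM against 112, 122 and 117 CPM (log2 0.86 ± 0.07, adjusted p = 1.09e-06). The groups did not overlap for any of these, which the naming rule required. F5, coagulation factor V, rose 1.9-fold (7.63, 8.4 and 7.33 CPM against 14.8, 15 and 14.6 CPM). TFPI, the inhibitor of the tissue factor pathway, rose 1.66-fold, from 122, 119 and 82.7 to 177, 183 and 177 CPM. TFPI and F5 act in opposite directions in clotting. The vector control spread of TFPI came from replicate 3, and without that library its log2 change was 0.57 in place of 0.73. In the list of complement and coagulation genes, 2 of 32 tested members rose and 2 fell (12.5% called). Of 26 protease inhibitors, 3 rose (TFPI, SERPINB5 and SERPINE2) and 1 fell (CSTA), or 15.38% called. Over all protein-coding genes 6.01% were called. MAN1A1, a mannosidase that trims N-glycans in the Golgi, rose 1.75-fold, NAALAD2, a peptidase related to the prostate antigen FOLH1, rose 1.72-fold, and the zinc finger gene ZBBX rose 1.96-fold. ATP1B1, the beta subunit of the sodium pump, rose by 0.59 on the log2 scale at high abundance, from 363, 348 and 291 to 484, 508 and 522 CPM (adjusted p = 9.62e-05).

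PCDH11Y, a protocadherin, went from 14.5, 14.7 and 12.5 to 28.8, 29.5 and 28 CPM, a 2.07-fold rise (adjusted p = 1.24e-07). It has a near-identical copy, PCDH11X, and the sources used here do not say how reads that match both were counted, so its value is uncertain.

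Among the falls were 2 histone genes that lie next to each other on chromosome 12. H2AJ, a replication-independent variant of histone H2A whose transcript is polyadenylated, was at 85.4, 84.5 and 119 CPM in vector control and at 27.6, 27.4 and 29.4 CPM in overexpressing cells (log2 -1.77 ± 0.11, adjusted p = 5.55e-08). H4C16, which codes for histone H4, was at 48.3, 37 and 56.6 CPM against 14.8, 14.8 and 14.1 CPM (log2 -1.70 ± 0.12, adjusted p = 1.59e-07). Vector control replicate 3 was the highest library for both, and without it the changes were -1.60 and -1.55. The 250 bases upstream of the RefSeq start of each of the paired genes (GRCh38.p14) are shown because the pair moved together. The H2AJ stretch is chr12:14774155-14774404 on the plus strand and the H4C16 stretch chr12:14771132-14771381 on the minus strand, each written 5′ to 3′ along its gene, with matches to CCAAT and TATAAA on either strand in capitals.

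H2AJ: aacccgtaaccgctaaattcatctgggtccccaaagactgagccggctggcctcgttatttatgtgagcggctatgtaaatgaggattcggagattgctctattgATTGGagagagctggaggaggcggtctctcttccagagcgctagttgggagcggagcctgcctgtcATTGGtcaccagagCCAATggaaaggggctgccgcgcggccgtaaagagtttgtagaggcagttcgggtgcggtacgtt
H4C16: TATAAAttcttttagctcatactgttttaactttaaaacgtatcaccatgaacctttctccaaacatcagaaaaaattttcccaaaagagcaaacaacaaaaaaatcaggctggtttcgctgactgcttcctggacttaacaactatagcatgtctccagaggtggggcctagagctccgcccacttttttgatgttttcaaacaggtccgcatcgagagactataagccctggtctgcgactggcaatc

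The H2AJ stretch held 3 matches to CCAAT and none to TATAAA, and the H4C16 stretch held 1 match to TATAAA, at its far end from the gene, and none to CCAAT. In windows of 300 bases that span the starts of tested genes, 34.3% held CCAAT and 7.45% TATAAA. A match describes the letters only.

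Some genes of actin and myosin are described together here, a grouping made after their values had been seen and with no list behind it. MYL9, the regulatory light chain of smooth muscle and non-muscle myosin, was at 2.92, 2.95 and 3.36 CPM in vector control and 0.356, 0.292 and 0.35 CPM in overexpressing cells. That is 230 to 242 reads in each vector control library against 24 to 30 in each overexpression library, a 9.2-fold fall (log2 -3.20 ± 0.16, adjusted p = 4.51e-09). TMSB4X, which binds actin monomers, fell 2.9-fold, from 31, 27.5 and 31.5 to 9.78, 10.2 and 11 CPM (adjusted p = 6.51e-09). ACTA2, smooth muscle alpha-actin, fell 2.99-fold, from 16.3, 17.3 and 22.2 to 6.43, 6.02 and 6.19 CPM (adjusted p = 1.44e-07). FLNA, an actin crosslinker, fell at high abundance, at 607, 639 and 841 CPM against 395, 391 and 432 CPM (log2 -0.78 ± 0.09, adjusted p = 8.71e-05), and MYH9, a non-muscle myosin heavy chain, at 761, 778 and 1031 CPM against 564, 556 and 607 CPM (log2 -0.57 ± 0.09, adjusted p = 0.00105). In both, vector control replicate 3 was the highest library, and without it the changes were -0.62 and -0.42. TPM1, a tropomyosin, fell by 0.41 (107, 106 and 110 CPM against 79.7, 82.1 and 81.3 CPM). ACTB, cytoplasmic beta-actin, did not pass the test, with a log2 change of -0.13 (adjusted p = 0.17), and TAGLN, an actin-binding protein of smooth muscle, was at 2.52, 2.73 and 4.1 CPM against 3.39, 3.69 and 3.3 CPM, groups that overlap.

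ACTA2 and MYL9 are also expressed in smooth muscle and fibroblasts. Of 14 fibroblast and smooth muscle markers, 8 were tested, of which ACTA2 fell and none rose. Their summed level was 31.3 to 42.3 CPM in vector control and 23 to 24.4 CPM in overexpressing cells, a sum that includes ACTA2, and COL1A2, DCN, PDGFRA, DES and CNN1 were under 0.1 CPM in each of the 6 libraries. The 250 bases upstream of a RefSeq start of ACTA2 (GRCh38.p14, chr10:88952774-88953023, minus strand) follow because the CArG box, the site of serum response factor, is a textbook element of that promoter. Capitals mark the matches to it, with at most 1 base other than A or T allowed between the outer CC and GG.

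ACTA2: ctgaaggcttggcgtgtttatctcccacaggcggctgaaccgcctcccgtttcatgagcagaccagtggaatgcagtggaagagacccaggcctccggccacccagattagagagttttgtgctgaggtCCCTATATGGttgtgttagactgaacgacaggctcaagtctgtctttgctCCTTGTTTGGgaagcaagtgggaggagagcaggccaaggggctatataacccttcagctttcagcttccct

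The stretch held 2 such matches. Windows with a CArG box made up 8.17% of those of genes called lower, 5.21% of those of genes called higher and 7.31% of all. This element was added to the search after the fall of ACTA2 was known.

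Among 38 tested matricellular and matrix glycoproteins, 6 fell and 2 rose, beside 3.92% and 2.08% of all protein-coding genes. The list had 7 falls and 5 rises without vector control replicate 3, and its median log2 change went from -0.158 to -0.082. THBS1, which binds and activates latent TGF-beta, fell from 112, 118 and 123 to 32.8, 33.5 and 34.1 CPM (log2 -1.81 ± 0.07, adjusted p = 1.7e-10), and LTBP1, which tethers latent TGF-beta to the matrix, from 8.18, 8.85 and 8.43 to 3.8, 4.02 and 4.59 CPM (log2 -1.04 ± 0.11, adjusted p = 1.62e-05). FN1, fibronectin, was among the most abundant of the falls at 1023, 1021 and 1083 CPM against 777, 747 and 764 CPM (log2 -0.45 ± 0.05, adjusted p = 3.15e-05). Not every family member followed: THBS2 rose by 0.69 (1.87, 1.43 and 1.23 CPM against 2.42, 2.34 and 2.56 CPM) and LTBP2 by 0.41. COL12A1, a fibril-associated collagen, fell 3.39-fold (6.39, 5.59 and 5.1 CPM against 1.56, 1.86 and 1.62 CPM). Among 39 extracellular proteases, 7 fell and 2 rose (7 and 3 without vector control replicate 3). MMP10, stromelysin 2, was at 1.6, 1.12 and 1.13 CPM against 0.107, 0.207 and 0.225 CPM, which is 80 to 126 reads against 9 to 18 in each library (log2 -2.83 ± 0.37, adjusted p = 0.000215). MMP13, collagenase 3, from the same gene cluster, fell by 1.02 (2.81, 3.02 and 2.51 CPM against 1.75, 1.22 and 1.15 CPM). The abundant protease ADAMTS1 fell by only 0.37, from 849, 847 and 943 to 685, 674 and 683 CPM (adjusted p = 0.000936). The rises were ADAM22 and ADAM23, catalytically inactive members that act as receptors, by 0.37 and 0.54.

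Cell adhesion genes were called in both directions. Of 46 tested cadherins and tight junction genes, 5 rose and 8 fell (28.26%), with a median log2 change of -0.021, and of 0.024 without vector control replicate 3, when 4 rose and 7 fell. CLDN1, a tight junction claudin, was at 1.03, 0.804 and 0.846 CPM against 0.143, 0.243 and 0.1 CPM, a 5.47-fold fall (adjusted p = 8.17e-05) that rests on 8 to 20 reads in each overexpression library. CLDN3, a more abundant claudin, fell from 25.2, 27.7 and 35.4 to 18, 17.2 and 19.5 CPM (log2 -0.69 ± 0.10). NECTIN3, an adherens junction protein, fell 2.5-fold from 5.81, 4.52 and 3.31 to 1.73, 1.91 and 1.82 CPM, and FAT1, an atypical cadherin, fell by 0.32 at 441, 439 and 449 CPM against 364, 346 and 352 CPM. The rises were CDH18, CDH6, CLDN9, CDH13 and CDH26. CDH18, a cadherin of the nervous system, was low in all libraries, at 0.241, 0.232 and 0.254 CPM against 0.677, 0.779 and 0.787 CPM (log2 1.62 ± 0.25, adjusted p = 0.000931). CDH6, CDH13 and CLDN23, 1 of the falls, lost their calls without vector control replicate 3, with adjusted p = 0.0524 for CDH6, which was at 0.333, 0.84 and 0.462 CPM in overexpressing cells. DSC3, desmocollin 3, a cadherin of desmosomes, was not in the list and fell 2.96-fold, from 75.5, 72.3 and 60 to 22.8, 24.4 and 23 CPM (adjusted p = 6.51e-09). DPP4, a membrane peptidase, fell 2.94-fold, from 52.3, 53.9 and 46.5 to 17.4, 17.3 and 17.3 CPM (adjusted p = 6.51e-09).

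Axon guidance genes had 7 falls and 2 rises among 35 tested ephrins, Eph receptors, slits, robos and netrins (25.71%), with a median of -0.049. Leaving out vector control replicate 3 gave 7 falls and 4 rises and a median of 0.019. UNC5C, a netrin receptor, fell from 1.09, 1.11 and 0.592 to 0.143, 0.28 and 0.3 CPM (log2 -1.96 ± 0.31, adjusted p = 0.00136). Its neighbour BMPR1B, a type I receptor for bone morphogenetic proteins, fell 4.03-fold, from 6.41, 5.63 and 4.69 to 1.27, 1.46 and 1.43 CPM (adjusted p = 1.61e-07). NTNG1, a membrane-anchored netrin, fell 2.34-fold from 30.6, 28 and 24.8 to 12.8, 10.4 and 12.3 CPM (adjusted p = 4.91e-07). Receptors of the EphA class split, with EPHA5 lower by 1.22, EPHA2 lower by 0.76 (6.14, 5.73 and 7.37 CPM against 3.79, 3.81 and 3.76 CPM) and EPHA3 higher by 0.50 (41.4, 41 and 34.7 CPM against 54.9, 55.1 and 55.3 CPM). EFNA5, an ephrin ligand, fell by 0.45 (148, 154 and 135 CPM against 110, 103 and 106 CPM, adjusted p = 0.000189). Of 27 semaphorins, plexins and neuropilins 2 fell, PLXND1 and NRP1, and without vector control replicate 3 there were 3 falls and 2 rises. With all libraries 7.41% were called, near the 6.01% of protein-coding genes.

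Of 25 EGF and FGF family ligands and receptors, 4 fell and none rose (5 and 1 without vector control replicate 3). With all libraries 16% of them were called, beside 6.01% of protein-coding genes, and with only the 6 libraries 1 member was called. FGFR3 was at 4.05, 4.69 and 6.12 CPM against 2.7, 2.87 and 2.26 CPM (log2 -0.92 ± 0.14, adjusted p = 0.000737), and the ligands TGFA, HBEGF and EGF fell by 0.50, 0.40 and 0.25. Of 47 WNT ligands, receptors and feedback targets, 4 fell and none rose (6 and 1 without vector control replicate 3). The 8.51% called was not far above the share of protein-coding genes, where falls were also the more frequent direction. FZD4, a frizzled receptor for WNT and norrin, went from 22.3, 23.4 and 22.4 to 15.2, 14.6 and 14 CPM (log2 -0.64 ± 0.07, adjusted p = 2.06e-05). Of 37 NOTCH and hedgehog genes, 4 fell, among them SMO, the hedgehog signal transducer (7.71, 9.07 and 11.5 CPM against 5.37, 5.09 and 5.59 CPM, log2 -0.81 ± 0.12), and HES1, a NOTCH target repressor (9.98, 10.4 and 9.77 CPM against 6.71, 6.34 and 7.12 CPM, log2 -0.58 ± 0.08), and DTX4 rose. With all libraries 13.51% of this list was called. Its balance turned without vector control replicate 3, with 5 rises and 4 falls. ID1, an inhibitor of basic helix-loop-helix factors and a target of bone morphogenetic protein signalling, fell from 31.6, 33.2 and 37 to 17, 16.7 and 18.9 CPM (log2 -0.95 ± 0.08, adjusted p = 1.03e-06). SOX9, a transcription factor of epithelial progenitors, fell 1.94-fold (4.19, 3.84 and 4.31 CPM against 2.23, 1.9 and 2.24 CPM, adjusted p = 0.000121). It was 1 of 3 falls, with KLF5 and KLF7, among 98 tested homeobox factors outside the HOX clusters and SOX, KLF, GATA, ETS and FOX factors, where none rose and 3.06% were called. In the fit without vector control replicate 3, 1 rose and 5 fell.

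Of 68 tested cytokines, chemokines and their receptors, 8 fell and 2 rose (14.71% called, beside 6.01% of protein-coding genes), with a median log2 change of -0.067. With vector control replicate 3 left out there were 9 falls and 3 rises, and the median was -0.032. CCL2, a chemokine that attracts monocytes, was at 0.965, 1.19 and 0.888 CPM in vector control and at 0.0832, 0.0608 and 0.05 CPM in overexpressing cells, or 63 to 98 reads against 4 to 7 in each library (log2 -3.94 ± 0.52, adjusted p = 0.000249). IL32, a secreted inflammatory protein, fell 5.27-fold, from 1.21, 1.37 and 1.75 to 0.309, 0.243 and 0.262 CPM (adjusted p = 0.000674). For neither gene did the groups overlap, a condition of the rule that named them. The rises were TNFSF10, the death ligand TRAIL, from 4.98, 4.41 and 3.79 to 6.6, 6.42 and 6.76 CPM, and TNFRSF19. Leukocyte markers were at a summed 1.92 to 2.27 CPM in vector control and 1.42 to 1.67 CPM in overexpressing cells. None of the 5 tested out of 12 was called, and CD3E, CD3D, MS4A1, CD79A and TYROBP were under 0.1 CPM in each library.

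Nutrient transporters fell in 9 of 52 tested cases and rose in 2 (21.15% called), with a median log2 change of -0.096, and of -0.056 without vector control replicate 3. SLC43A1, a transporter of large neutral amino acids, fell from 32.2, 33.5 and 40.2 to 21.7, 21 and 21.3 CPM (log2 -0.73 ± 0.08, adjusted p = 5.41e-05). SLC1A4, a carrier of alanine, serine and cysteine, fell from 19.5, 18.8 and 20.2 to 13.8, 14 and 14.2 CPM (log2 -0.48 ± 0.06, adjusted p = 0.000272). The glutamine carrier SLC1A5 fell by 0.38 and SLC3A2, the heavy chain that pairs with several amino acid exchangers, by 0.47, at 213, 219 and 274 CPM against 172, 165 and 173 CPM. SLC16A3, a lactate exporter, fell by 0.93, from 2.43, 2.33 and 3.38 to 1.38, 1.22 and 1.67 CPM. The rises were SLC1A3, a glutamate carrier, by 0.47 and SLC16A7, a monocarboxylate carrier, by 0.49. Outside the list, SLC22A3, an organic cation transporter, rose from 12.5, 12.9 and 12.4 to 34.2, 35.8 and 32.8 CPM (log2 1.45 ± 0.09, adjusted p = 5.2e-08), while SLC22A2, its paralog in the same cluster, fell from 13.3, 13.4 and 14.4 to 6.88, 6.25 and 6.79 CPM (log2 -1.05 ± 0.10, adjusted p = 8.3e-06). LPAL2, the pseudogene on the other side of SLC22A3, fell from 31.8, 29.9 and 34.4 to 18.6, 16.5 and 17.4 CPM (log2 -0.87 ± 0.10, adjusted p = 5.32e-05), so that SLC22A3 was flanked by falls on both sides. In metabolism, ALDH5A1, which breaks down a product of the transmitter GABA, fell 2.94-fold (3.71, 3.45 and 4.1 CPM against 1.14, 1.45 and 1.24 CPM, adjusted p = 6.08e-06), 1 of 3 falls and 2 rises among 59 glutathione, NRF2 and aldehyde genes. Of that list 8.47% were called, not far above the 6.01% of protein-coding genes. HLF, a circadian output factor, rose 1.45-fold and its relative TEF fell by 0.33, the latter with a call that was lost in 12 of its alternatives.

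Further falls lay outside these groups. RTN1, a reticulon of the endoplasmic reticulum, fell 3.21-fold, from 13.9, 13.2 and 14.6 to 4.18, 3.97 and 4.84 CPM (adjusted p = 1.86e-08). CRIP2, a LIM domain protein, fell 2.88-fold, from 6.86, 7.03 and 9.22 to 2.6, 2.79 and 2.64 CPM (adjusted p = 3.55e-07), and RGS2, which switches off G protein signals, fell 3.42-fold, from 1.27, 1.65 and 1.89 to 0.416, 0.487 and 0.5 CPM (adjusted p = 0.000298). The groups did not overlap for these genes, again a condition of the naming rule. CLU, a secreted chaperone, fell 5.52-fold, DAPK1, a death-associated kinase, 4.19-fold, TMEM45B 3.32-fold and DDC, which makes dopamine and serotonin, 2.91-fold. Among abundant rises was HSP90AA1, an inducible chaperone, from 1501, 1464 and 1493 to 1768, 1863 and 2022 CPM (log2 0.34 ± 0.06, adjusted p = 0.00241).

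Of 15 tested luminal prostate markers, by which the line is known, 3 fell and none rose (20% called, beside 6.01% of protein-coding genes). Their summed level was 6810 to 6930 CPM in vector control and 6410 to 6530 CPM in overexpressing cells. TRPM8, an androgen-responsive cold channel, fell 2.6-fold, from 38.9, 42.6 and 39.3 to 15.3, 14.2 and 16.8 CPM (adjusted p = 2.68e-08). NDRG1 fell by 0.65 on the log2 scale and KLK3, prostate-specific antigen, by 0.51. FOXA1, a pioneer transcription factor of luminal cells, was at 393, 396 and 345 CPM against 382, 382 and 391 CPM, groups that overlap, and did not pass the test (log2 0.03 ± 0.06, adjusted p = 0.849). No basal, endothelial or other-line marker was called, out of 9, 5 and 11 tested, and 1 basal marker, ITGB4, passed the test as higher without vector control replicate 3. TP63, KRT5 and KRT17 of the basal list were under 0.1 CPM in every one of the 6 libraries, as were CDH2, CAV1, S100A6 and KRT7 among markers of other prostate cancer lines. The cancer-testis antigen MAGEA4 fell 2.67-fold (13.4, 12.5 and 13.6 CPM against 4.65, 5.45 and 4.7 CPM). PRUNE2, at 1280, 1269 and 1255 CPM against 884, 852 and 873 CPM (log2 -0.54 ± 0.05, adjusted p = 7.47e-06), had little spread within either group.

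Of 58 lysine and arginine methyl modifiers, KMT5A alone was called, lower by 0.26, and of 32 deacetylases and acetyltransferases outside SAGA and ATAC, CREBBP alone was called, higher by 0.30 (64.3, 64.5 and 62.5 CPM against 80.6, 72.7 and 82.9 CPM, adjusted p = 0.0227). Both calls were lost with only the 6 libraries. Without vector control replicate 3, 3 methyl modifiers rose and 3 fell, and 2 deacetylases or acetyltransferases rose and 1 fell, while 10.6% of all protein-coding genes were called. Cyclic nucleotide enzymes and A-kinase anchors had 1 fall among 45 with all libraries, and 2 rises and 5 falls without that library. Autophagy genes had 1 rise and 1 fall among 43, and 1 rise and 3 falls without it. Lists of well-measured protein-coding genes are not read against the 4.11% of all genes alone, since 6.01% of protein-coding genes were called. The plot of called members by list gives the shares with all libraries.

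**Figure D3:**
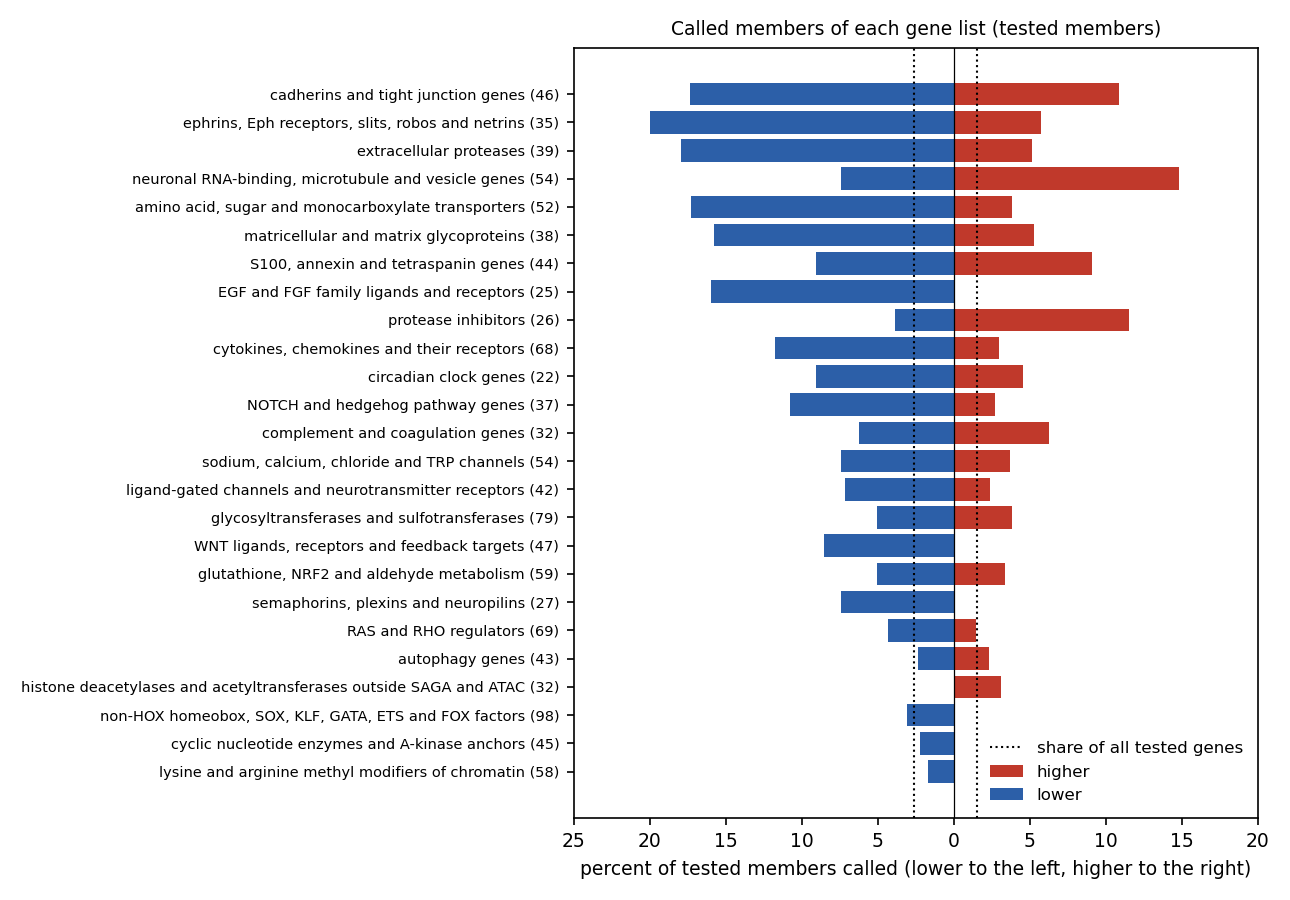
Percent of the tested members of each of 25 gene lists that were called higher (red, to the right) or lower (blue, to the left) on overexpression with all libraries, with the number of tested members in brackets. Dotted lines mark the shares of all tested genes, 1.51% higher and 2.6% lower. Neuronal vesicle genes and protease inhibitors extend further to the right than to the left, and ephrin, protease, transporter and matrix lists further to the left.

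Calls were also made outside protein-coding genes, which supplied 893 of the 1072. Of lincRNA genes 2.85% were called, of antisense genes 1.38% and of pseudogenes 1.52%. LINC01029 rose 4.47-fold, from 0.8, 1.09 and 0.888 to 3.84, 4.06 and 4.52 CPM (adjusted p = 2.05e-07). NEAT1, the scaffold RNA of paraspeckles, rose by 0.39 (629, 648 and 571 CPM against 808, 839 and 773 CPM, adjusted p = 0.0101), a call lost when overexpression replicate 2 was left out. CYTOR, a lincRNA linked to cell motility, fell 2.6-fold (2.16, 2.4 and 2.26 CPM against 0.57, 1.11 and 0.95 CPM). PHF2P2 and A2MP1, pseudogenes of PHF2 and A2M, fell 3.11-fold and 2.67-fold, and reads shared with their parent genes make both uncertain, as for TUFMP1, a processed copy of TUFM. Genes that lie next to each other among the tested genes were both called in the same direction in 63 pairs of falls and 33 pairs of rises, out of 24849 pairs, and in opposite directions in 12. Without vector control replicate 3 these counts were 134, 65 and 32. Besides the histone pair, BMPR1B with UNC5C and MMP10 with MMP13, these included FOXL2, a forkhead factor, lower by 1.68, with its divergent neighbour FOXL2NB, lower by 2.11, and TRHDE, an ectoenzyme that breaks down thyrotropin-releasing hormone, higher by 1.92, with TRHDE-AS1, higher by 2.70. Without a stated strand setting for the counting, reads of such overlapping or antisense partners cannot be told apart. The number of pairs expected from the shares of genes called was not computed, and more calls give more pairs of each kind. Opposite neighbours included F2R, thrombin receptor, higher by 0.37, and F2RL1, a related receptor, lower by 0.29.

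The share of genes called changed with their abundance. By decile of mean CPM it was 0.767% in decile 1, 8.09% in decile 6 (2.06 to 7.52 CPM), the highest share, and 6.37% in decile 10. Among protein-coding genes it also changed with exon length, from 4.37% in the shortest quintile to 7.94% in the longest. GC content was related to direction. In the quintile with the lowest GC content, 104 genes rose and 62 fell with a median log2 change of 0.08, and in the quintile with the highest, 26 rose and 111 fell with a median of -0.124. Without vector control replicate 3 this order was gone: the lowest quintile had 128 rises and 202 falls with a median of -0.022, and the highest 164 rises and 128 falls with a median of 0.019. Which direction was the more frequent among GC-rich genes thus changed with that library. An offset fitted to GC content in each library takes out such a trend by construction, whatever its source. With it the medians were -0.037 to -0.044 in all quintiles, and 2033 genes were called (710 higher and 1323 lower).

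**Figure D4:**
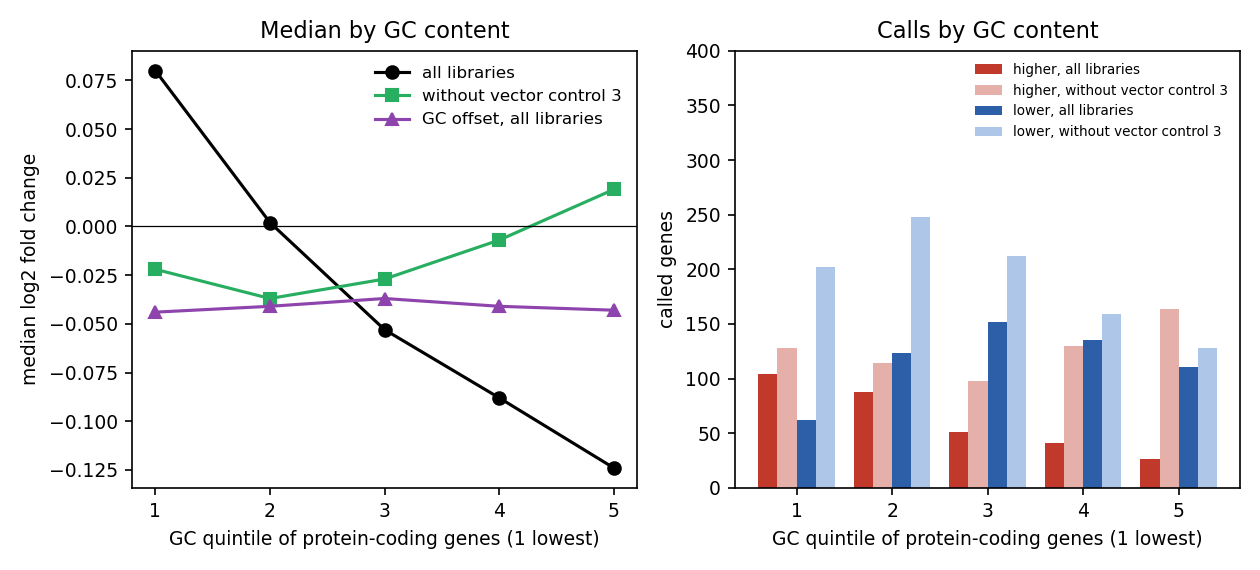
Protein-coding genes in quintiles of GC content (horizontal axis, lowest to highest, 2974 genes each). The left panel gives the median log2 fold change with all libraries, without vector control replicate 3 and with a GC offset, and the right panel the number of genes called higher or lower with and without that library. The falling line of the left panel, from 0.08 to -0.124, flattens to between -0.037 and 0.019 when vector control replicate 3 is left out.

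Of the 830 genes called only without vector control replicate 3, 8 were named by rule. Genes that gain a call when that library is left out tend by that choice to have it nearer to the overexpression libraries, so their values are a description. FAM135A was at 54, 51.6 and 35.6 CPM in the vector control libraries and at 36.6, 36.3 and 35 CPM in the overexpression libraries. Vector control replicate 3 lay among the overexpression libraries, and the log2 change was -0.39 with it (adjusted p = 0.0664) and -0.56 without it (adjusted p = 2.79e-07). In KLHL1 (107, 108 and 67.5 CPM against 71.5, 75.7 and 71 CPM) and ZPLD1 (20.3, 22.1 and 12.5 CPM against 13.8, 16 and 13.5 CPM) it lay below all overexpression libraries. In the other direction FBXO2, a substrate receptor for glycoproteins, was at 6.96, 6.29 and 9.2 CPM against 10.3, 9.43 and 9.91 CPM. CYP11A1, the enzyme that starts steroid synthesis from cholesterol, was at 7.67, 7.74 and 10.3 CPM against 10.8, 11.2 and 11.9 CPM, with a log2 change of 0.40 with all libraries (adjusted p = 0.0602) and 0.55 without vector control replicate 3 (adjusted p = 0.000359). In mitochondrially encoded transcripts the size of the change depended on vector control replicate 3, but MT-ND4, MT-CYB and MT-ND4L were called with and without that library. MT-ND4 was at 433, 442 and 275 CPM against 567, 541 and 603 CPM, a change of 0.57 with that library and 0.38 without it.

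The depletion of USP22 shares no control library with its overexpression, and on depletion 19.8% of genes were called. For 41 genes named by their size of change on overexpression, USP22 included, 29 were called on depletion. The difference between the effects was called for 25 of them, beside 10.9% of all tested genes. The overexpression effect is part of that difference and these genes were picked by it, so the choice itself favours such calls. Only 4 of the 41, USP22, LINC01029, PCDH11Y and H4C16, were called on both with opposite signs. USP22 fell by 0.89 on depletion, LINC01029 changed by 2.16 on overexpression and -2.13 on depletion (adjusted p of the difference 1.72e-08), PCDH11Y by 1.05 and -2.02, and H4C16 by -1.70 and 0.45 (adjusted p of the difference 7.98e-07). The control groups of these genes differed. Means in vector control, overexpression, shRNA control and depletion were 0.924, 4.14, 1.52 and 0.346 CPM for LINC01029. They were 13.9, 28.7, 52.9 and 13 CPM for PCDH11Y and 47.3, 14.5, 10.8 and 14.7 CPM for H4C16. H2AJ, the neighbour of H4C16, had a depletion effect of 0.04, which did not pass the test (adjusted p = 0.876), against -1.77 on overexpression (adjusted p of the difference 2.71e-06). THBS1 and GPRIN2, a neurite outgrowth regulator, were likewise called on overexpression only, with depletion effects of -0.16 and -0.09 and a called difference. In H2AJ, THBS1 and GPRIN2 the shRNA control lay closer to the overexpression group than to the vector control. Mean CPM in vector control, overexpression, shRNA control and depletion was 96.2, 28.1, 20.4 and 20.9 for H2AJ. It was 118, 33.5, 29.8 and 26.8 for THBS1 and 20.6, 6.65, 7.04 and 6.59 for GPRIN2. The difference between the control groups was not tested. Several genes fell on both overexpression and depletion. MYL9 changed by -3.20 on overexpression and -3.66 on depletion (adjusted p of the difference 0.243), COL12A1 by -1.76 and -1.74 (0.941), DSC3 by -1.57 and -1.79 (0.282) and DPP4 by -1.55 and -1.72 (0.427). MAGEA4 and ACTA2 fell further on depletion, with changes of -3.35 and -2.84 and adjusted p of the difference 5.96e-05 and 6.63e-05. The controls of these falls differed too. Vector control and shRNA control means were 69.3 and 12.8 CPM for DSC3, 50.9 and 9.25 CPM for DPP4 and 13 and 2.28 CPM for MAGEA4. In these genes the shRNA control was also below the overexpression mean. The shRNA control was the higher of the controls for MYL9, COL12A1 and ACTA2, at 4.56, 14.6 and 33.8 CPM against 3.1, 5.7 and 18.6 CPM. PEG10, SLC22A3, RALYL and KCNQ5 rose on both, with differences that were not called. SLC22A3 had means of 12.6 CPM in vector control and 34.3 CPM on overexpression. Its means were 0.65 CPM in shRNA control and 1.58 CPM on depletion, both far below the vector control. Vector control and shRNA control means were 0.96 and 2.43 CPM for PEG10, 6.5 and 14 CPM for RALYL and 1.45 and 1.25 CPM for KCNQ5. RFX6, TLL1, OPRK1 and MAN1A1 rose on overexpression, had depletion effects of 0.29, 0.00, -0.14 and -0.16 that did not pass the test, and had called differences. OPRK1 and TLL1 had higher means in the shRNA control than in vector control, 11.2 and 97.3 against 6.25 and 64.5 CPM. RFX6 and MAN1A1 had lower means there, 0.9 and 5.85 against 1.58 and 9.75 CPM. Among the more abundant genes and list members, PRUNE2 (-0.54 and 0.54), SLC43A1 (-0.73 and 0.54) and SLC1A4 (-0.48 and 0.64) fell on overexpression and rose on depletion, and NEAT1 did the reverse (0.39 and -1.02). The control groups of these genes were at different levels. Vector control and shRNA control means were 1268 and 473 CPM for PRUNE2 and 35.3 and 10.5 CPM for SLC43A1. They were 19.5 and 12.5 CPM for SLC1A4 and 616 and 1436 CPM for NEAT1. An uncalled difference does not show that the effects are alike.

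**Figure D5:**
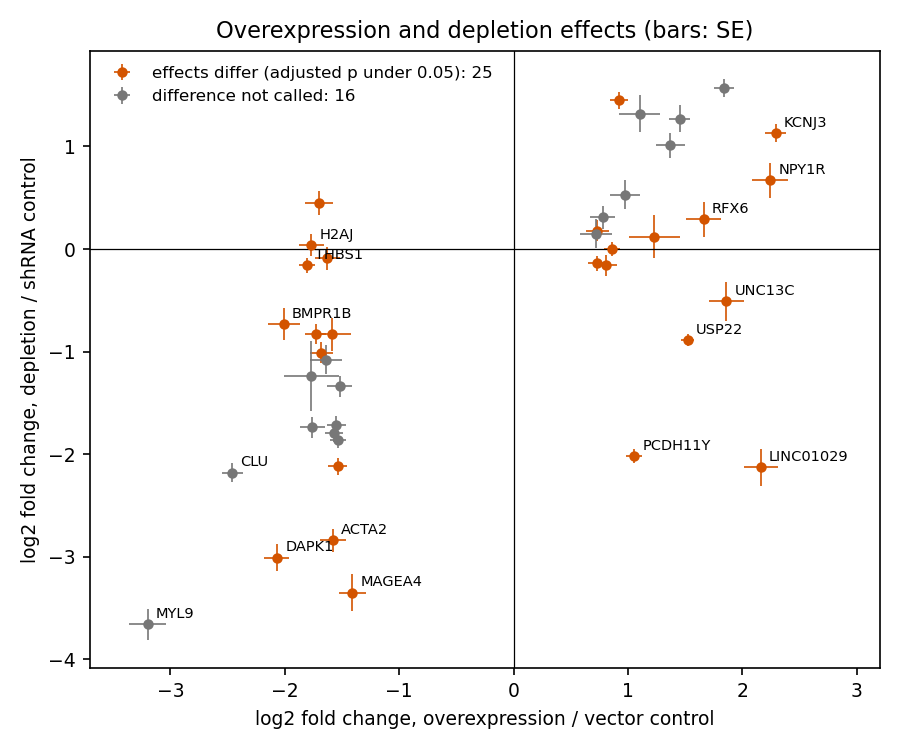
Log2 fold change on overexpression (horizontal axis) against log2 fold change on depletion (vertical axis) for 41 genes named by their size of change, with bars of 1 SE. Orange points are the 25 genes whose effects differed and grey points the 16 for which the difference was not called. Falls on overexpression lie mostly below 0 on depletion too, while rises lie on both sides of it, with LINC01029 and PCDH11Y near -2.

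Promoter sequence was compared in RefSeq windows of 300 bases, 250 before to 50 after the start, found for 13512 of the tested genes (19157 windows, 403 of them from 258 genes called higher and 796 from 506 called lower). The ETS core CCGGAAG was in 4.96% of windows of genes called higher, in 9.3% of those called lower and in 14.7% of all. The YY1 motif AAGATGGC was in 1.24%, 1.88% and 4.09%. Both are common at promoters of housekeeping genes. The AP-1 motif TGANTCA was in 8.19%, 4.27% and 5.68%, and TATAAA in 10.9%, 9.05% and 7.45%. The GC box GGGCGG, in 53.8%, 60.1% and 61.3%, and CCAAT, in 30.8%, 36.1% and 34.3%, differed less between the sets in proportion. The E-box CACGTG was in 8.93%, 6.41% and 8.83%. Which genes are in these sets depends on vector control replicate 3, as does the direction among GC-rich genes. With the sets called without it, the ETS core was in 8.52% of windows of genes called higher and 11.8% of those called lower, the YY1 motif in 2.37% and 2.98%, TGANTCA in 6.86% and 4.28%, and TATAAA in 7.34% and 8.48%. The GC box was then in 61.8% and 61.5%, CCAAT in 30.2% and 37.4% and the E-box in 9.11% and 7.03%. The E-box had 1 match upstream of NPY1R, the receptor gene described first among the rises, and the 250 bases are shown for that reason (GRCh38.p14, chr4:163332597-163332846, minus strand, E-box in capitals).

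NPY1R: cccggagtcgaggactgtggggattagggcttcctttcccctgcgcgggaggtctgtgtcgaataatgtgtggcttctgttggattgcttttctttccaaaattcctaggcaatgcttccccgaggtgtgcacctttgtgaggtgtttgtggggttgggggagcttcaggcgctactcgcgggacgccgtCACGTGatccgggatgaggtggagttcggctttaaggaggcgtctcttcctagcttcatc

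Motifs were searched on both strands, a gene can have more than 1 window, and neither CpG content nor expression level was matched between the sets, so the shares describe letters in these windows and no binding.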

How the data were processed

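RNA from LNCaP cells was sequenced in 12 libraries of stranded total RNA. The authors deposited 1 table of raw read counts for 63677 Ensembl genes. The submitters' processing notes name the tools STAR 2.5.2a, featureCounts 1.5.0-p3 and DESeq2 1.14.1 and the hg19 build. Not given in the sources used here are the annotation release, the strand setting and the handling of reads that map to several places. Columns were matched to samples by name.

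Genes passing filterByExpr (26076) were TMM-scaled and fitted over all 4 groups with edgeR 4.0.16 (glmQLFit, glmQLFTest, 8 residual degrees of freedom, R 4.3.3). Benjamini-Hochberg adjustment covered every tested gene, and an adjusted p under 0.05 was a call. An exact permutation of 3 against 3 libraries cannot go below p = 0.1. The SE is the log2 change over the root of its F statistic. Gene type, length, GC content and order came from GENCODE 29 (95.4% of tested genes) and symbols from a table by ID (94.9%). No coordinates of counted genes are given, since that annotation is of another build.

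The members and gene lists were chosen with earlier results of these data known, so lists carry counts and no test. Genes were named by rule among called genes whose groups do not overlap and whose symbol is not a clone name: per direction, the 15 largest changes at 5 CPM or more, the 6 largest from 1 to under 5 CPM, the 6 largest differences in CPM, 4 non-coding genes and 4 called only without vector control replicate 3, plus up to 2 members per list and USP22. The text describes most of the genes so chosen and does not name the rest, and some genes that enter the totals are not reported here. Other named genes are list members, neighbours or markers chosen after their values were seen. In data simulated for this comparison (26076 genes), 49.3% of 1.5-fold and 84% of 4-fold changes were recovered, with 5.83% false calls. The simulated counts were independent between genes, with no library that stands apart and no trend with GC content. These shares need not hold for the measured libraries. All replicate pairs differed beyond counting noise, so none was merged. Alternatives used RLE scaling, other filters, DESeq2 1.42.0, limma 3.58.1 voom, fewer libraries, a replicate block and, added after seeing the data, a GC offset and the promoter and neighbour counts without vector control replicate 3.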

Additional observations from a re-analysis of the deposited data

How the results depend on the processing

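The rise of USP22 kept its direction and call in every alternative, at 1.47 to 1.59. The 1072 calls became 2062 with no filter on low counts, 1786 with DESeq2, 327 with only the 6 libraries compared, 2033 with a GC content offset (added after seeing the data), 469 at an adjusted p under 0.01 and 291 when tested against a fold of 1.2 with glmTreat, and they remained within 1.5 times with RLE scaling, limma voom, a stricter filter (1 CPM or more in 3 libraries) and without the 20 most abundant genes. Leaving out 1 library gave 501 to 1842 calls: 501 without overexpression replicate 2, 539 without replicate 1 and 630 without replicate 3, against 1842 without vector control replicate 3. Fewer libraries in an arm assume that those left vary like the other groups. Replicate numbers do not pair the samples by the labels, and same-numbered libraries had correlations of their deviations of -0.0179, 0.0502 and 0.0827. With a replicate block 1098 genes were called, 978 of them among the 1072. Of 100 named genes called, 84 kept their call in every alternative that gave an adjusted p, 14 lost it with only the 6 libraries, 11 lost it on leaving out some library, and 0 reversed. Calls lost in several alternatives were those of TEF, MAP1LC3B, KMT5A, CREBBP, SERPINB5, TGFA, PLXND1, MT-ND4 and MT-CYB, and DESeq2 gave no adjusted p for CCL2. At this depth the simulated recovery of 12% of 1.25-fold changes limits what small changes can show.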
